A study of Rattus norvegicus with 26 samples.

Results

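The 6 rat genes Grin1, Grin2a, Grin2b, Grin2c, Grin2d and Grin3a, which encode subunits of the NMDA receptor, were followed across spinal cord libraries of injured rats treated with or without human mesenchymal stem cells. They were taken by gene name from a joint table of 32883 genes, and all 6 were among the 17990 genes that passed the filter on low counts. RNA was sequenced from spinal cord segments of 5 mm around the lesion in 26 libraries of 8 groups. The rats were wild type adult female Sprague-Dawley animals of 250 g, labelled as postnatal day 70 in every group. In all groups but Intact, the cord had been compressed at T10 for 1 min with a clip closing at 60 g. Intact (n = 4 libraries) comprised rats without this injury, for which the study's methods name intact or sham animals. The group sub-SCI (n = 3) was taken at the day of transplantation, 7 days after the injury. The +MSC groups received cells from human umbilical cord (hUC-MSCs) into the intrathecal space on that day and were taken after 1, 2 or 4 weeks (n = 3, 3 and 4). The +PBS groups received the saline vehicle and were taken at the same weeks (n = 3, 2 and 4). According to the study's methods the rats were given the immunosuppressant cyclosporin A every day. The study's methods call the libraries of a condition biological replicates without saying whether a library held RNA of a single rat, and the tests measure the spread between libraries. The labels, which were followed, give 2 libraries to +PBS-2w and 3 to +MSC-2w, whereas the methods give the smaller number to +MSC-2w, so every 2-week value rests on the labels.

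NMDA receptors are glutamate-gated cation channels that let calcium into neurons when glutamate and a co-agonist, glycine or D-serine, are bound and the membrane is depolarised. Every receptor holds the Grin1 subunit, which binds the co-agonist, together with Grin2 subunits, which bind glutamate and set the kinetics, or Grin3 subunits, which lower calcium permeability. In the spinal cord these channels act in sensory and motor transmission, and their overactivation is a known route of excitotoxic death after trauma. Bulk RNA gives the level of a transcript over all cells of the segment, so fewer cells of a type and less RNA per cell cannot be told apart.

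The start regions of Grin1 and Grin2c are shown because the tests of subunit composition turn on the ratio of these 2 transcripts. They were taken from RefSeq (GRCr8) and run from 250 bases before to 50 bases after the annotated start. The Grin1 region is chr3:28528705-28529004 and the Grin2c region is chr10:101005089-101005388, each on the minus strand. Capitals mark a GC box (GGGCGG, searched on both strands).
Grin1: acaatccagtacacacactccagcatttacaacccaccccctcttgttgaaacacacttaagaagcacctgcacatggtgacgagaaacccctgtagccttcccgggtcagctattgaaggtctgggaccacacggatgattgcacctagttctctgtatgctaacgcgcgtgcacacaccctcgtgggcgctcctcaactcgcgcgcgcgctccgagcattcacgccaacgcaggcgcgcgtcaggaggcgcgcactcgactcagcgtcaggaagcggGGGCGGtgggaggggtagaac
Grin2c: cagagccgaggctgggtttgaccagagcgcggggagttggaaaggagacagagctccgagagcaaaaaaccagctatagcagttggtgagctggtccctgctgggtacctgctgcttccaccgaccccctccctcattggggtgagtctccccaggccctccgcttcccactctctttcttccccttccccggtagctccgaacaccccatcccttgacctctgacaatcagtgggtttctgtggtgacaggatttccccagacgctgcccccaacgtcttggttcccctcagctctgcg
The Grin1 region held 1 GC box and 25 CpG dinucleotides, and 83.4% of the 33469 start regions in the table held fewer CpG. The Grin2c region held no GC box and 11 CpG, and 61.0% of regions held fewer. A GC box was found in 33.1% of all regions, and the median region had 7 CpG. The regions of Grin2d and Grin3a held no GC box and 11 and 17 CpG. Grin2a and Grin2b were not matched. These matches are a description of letters in a window.

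The total count per library lay between 19496602 and 43468509. Of the libraries, +PBS-4w replicate 1 stood apart in the subunit genes and was singled out after these values had been seen. Read counts were scaled to library size and given as CPM. Grin1 was at 130 CPM there and at 32.0, 49.3 and 48.4 CPM in the other +PBS-4w libraries. In the same library Grin2a was at 0.484 CPM, which rests on 13 reads, against 2.47, 3.85 and 4.22 CPM in the others. Neuron markers (15 genes) summed to 8758 CPM in it and to 2411, 2561 and 3337 CPM in the others. Its difference was not confined to neuronal genes. Fibroblast and scar matrix markers summed to 1383 CPM in it and to 5693, 4622 and 5579 CPM in the others. Microglia and macrophage markers, at 5544 CPM, lay within the range of the others (3978 to 5566 CPM). Several results that this library moves are given with and without it. The libraries labelled replicate 1 also deviated together from their groups, with a correlation of deviations over 0.1 in 18 of their 28 pairs, and each group holds 1 of them.

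Grin1, the subunit that all NMDA receptors share, had the highest level of the members in Intact. It was at 303, 260, 289 and 256 CPM in Intact and at 35.2, 46.8 and 12.003 CPM in sub-SCI. The +PBS libraries had 63.0, 61.7 and 37.3 CPM at 1 week, 56.2 and 112 CPM at 2 weeks and the values given above at 4 weeks. The +MSC libraries had 142, 104 and 92.7 CPM at 1 week, 205, 131 and 147 CPM at 2 weeks and 201, 106, 96.5 and 141 CPM at 4 weeks. All injured libraries, treated or not, lay below the lowest Intact library. The +MSC and +PBS ranges did not overlap at 1 and 2 weeks and overlapped at 4 weeks, where +PBS-4w replicate 1 reached into the +MSC range. Grin1 fell 8.84-fold in sub-SCI (log2 fold change -3.14 ± 0.47, SE, with adjusted p = 6.18e-06 by edgeR).

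Grin2a, the subunit that gives fast decaying receptors in mature neurons, had the largest fold decrease of the members. Its Intact libraries were at 21.7, 18.3, 25.1 and 15.6 CPM. Those of sub-SCI were at 0.698, 1.92 and 0.271 CPM, the last from 8 reads. In +PBS it was at 5.02, 2.98 and 1.36 CPM at 1 week and at 3.27 and 5.75 CPM at 2 weeks. The +PBS libraries thus lay above the sub-SCI range, apart from +PBS-1w replicate 3 and +PBS-4w replicate 1, which lay within it. In +MSC it was at 4.81, 9.08 and 6.10 CPM at 1 week, at 8.65, 10.2 and 6.01 CPM at 2 weeks and at 15.8, 7.80, 8.34 and 9.51 CPM at 4 weeks. The +MSC and +PBS ranges overlapped at 1 week and were apart at 2 and 4 weeks, and 1 library of +MSC-4w reached the Intact range. The fold decrease in sub-SCI was 21.1 (log2 fold change -4.40 ± 0.64, SE, adjusted p = 4.88e-06, edgeR), and without sub-SCI replicate 2 it was 40.6 (log2 fold change -5.34, adjusted p = 4.94e-06, edgeR).

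Grin2b, the subunit of slowly decaying receptors that predominates early in development, was the lowest of the members per length in Intact. It was at 8.84, 4.99, 10.96 and 6.20 CPM in Intact and at 1.34, 1.12 and 1.09 CPM in sub-SCI, a decrease of 6.52-fold (log2 fold change -2.70 ± 0.35, SE, adjusted p = 9.31e-07, edgeR). The +PBS libraries had 2.02, 1.34 and 2.92 CPM at 1 week, 1.76 and 2.53 CPM at 2 weeks and 1.602, 2.22, 1.83 and 3.03 CPM at 4 weeks. The +MSC libraries had 3.22, 5.50 and 2.68 CPM at 1 week, 4.93, 3.61 and 3.96 CPM at 2 weeks and 5.01, 3.85, 4.87 and 7.27 CPM at 4 weeks. The +MSC and +PBS ranges were apart at 2 and 4 weeks and overlapped at 1 week. Grin2b rests on few reads, from 31 to 237 per library.

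Grin2d, a subunit of very slowly decaying receptors found in spinal cord and brainstem, was at 48.5, 52.5, 46.8 and 47.9 CPM in Intact. The sub-SCI libraries were at 13.5, 14.9 and 9.32 CPM, a decrease of 3.89-fold (log2 fold change -1.96 ± 0.19, SE, adjusted p = 1.48e-08, edgeR). The highest value in any injured library was 34.6 CPM, so Intact stood alone at the top. In +PBS it was at 18.3, 15.4 and 14.1 CPM at 1 week, at 15.3 and 19.4 CPM at 2 weeks and at 18.3, 11.3, 12.3 and 13.1 CPM at 4 weeks. In +MSC it was at 24.01, 22.6 and 19.3 CPM at 1 week, at 34.6, 26.6 and 33.5 CPM at 2 weeks and at 25.9, 22.0, 18.5 and 27.2 CPM at 4 weeks. The +MSC libraries were above the +PBS libraries of the same week in all 3 weeks, although at 4 weeks the lowest and highest of the groups almost touched.

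Grin3a, which reduces the calcium flow of the receptors it joins, was at 16.0, 18.5, 19.3 and 16.5 CPM in Intact. It was at 3.63, 2.83 and 2.102 CPM in sub-SCI, a decrease of 6.14-fold (log2 fold change -2.62 ± 0.33, SE, adjusted p = 6.25e-07, edgeR). In +PBS the values were 5.53, 6.53 and 4.00 CPM at 1 week, 6.47 and 7.25 CPM at 2 weeks and 2.65, 6.32, 6.98 and 8.72 CPM at 4 weeks. The lowest +PBS value again came from +PBS-4w replicate 1. In +MSC they were 5.44, 11.7 and 8.03 CPM at 1 week, 9.19, 10.8 and 10.02 CPM at 2 weeks and 12.5, 8.07, 8.95 and 13.0 CPM at 4 weeks. The +MSC and +PBS ranges were apart at 2 weeks alone.

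Grin2c, a subunit found in cerebellar granule cells and in astrocytes, behaved unlike the other members. Intact libraries were at 109, 135, 117 and 129 CPM, and those of sub-SCI at 61.4, 55.9 and 35.9 CPM. The decrease was 2.40-fold (log2 fold change -1.27 ± 0.26, SE, adjusted p = 0.000289, edgeR), and the sub-SCI range lay below the Intact range. The +PBS libraries had 95.7, 122 and 34.5 CPM at 1 week, 165 and 137 CPM at 2 weeks and 113, 83.9, 107 and 101 CPM at 4 weeks. The +MSC libraries had 93.7, 99.9 and 105 CPM at 1 week, 119, 136 and 151 CPM at 2 weeks and 122, 93.0, 102 and 113 CPM at 4 weeks. All these libraries but +PBS-1w replicate 3 lay above the sub-SCI range. The +MSC and +PBS ranges overlapped in all 3 weeks, and +PBS-2w replicate 1 had the highest value of all 26 libraries.

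Ordered by mean CPM, sub-SCI was the lowest group for all 6 members and Intact the highest for all but Grin2c, for which +PBS-2w was. The +PBS groups came next above sub-SCI and the +MSC groups next below Intact for Grin1, Grin2a, Grin2b, Grin2d and Grin3a. Between neighbours in these orders the ranges overlapped throughout, except between sub-SCI and the next group for Grin2b and Grin3a and between Intact and the group below it for Grin1, Grin2d and Grin3a. The share of all genes tested whose ranges lie apart in the same way was not computed. This holds for these neighbours and for the +MSC and +PBS ranges above, so the separations only describe the members.

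**Figure D1:**
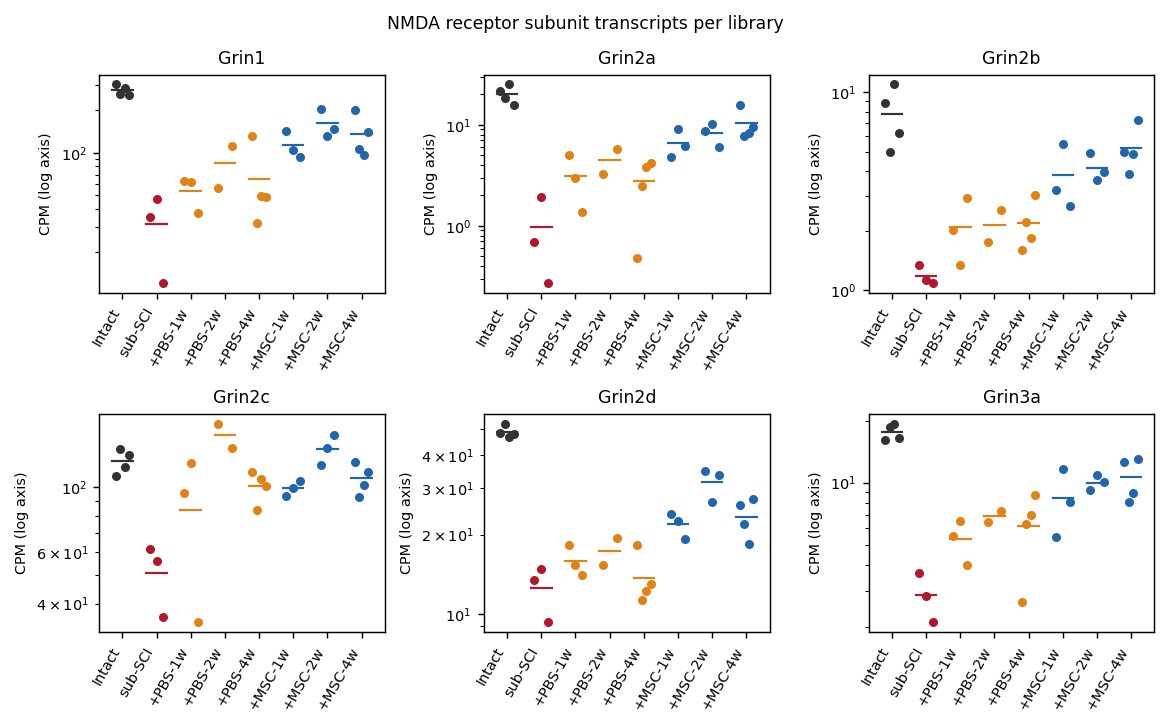
Level of each member in CPM (log axis) in every library, with groups on the horizontal axis, points for libraries and a line for the group mean. Intact libraries of Grin1, Grin2d and Grin3a lie above all injured libraries, while Grin2c lies near its Intact level in most +PBS and +MSC libraries.

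Against the 17990 genes tested, the injury moved the members in a single direction. A gene was called where the edgeR quasi-likelihood fit gave a change of more than 1 on the log2 scale, in either direction, together with an adjusted p below 0.01 (Benjamini-Hochberg, all genes tested). In sub-SCI against Intact, 6 of 6 members were lower, where 17.5% of all genes tested were called lower and 16.6% higher. The median log2 fold change was -2.66 over the members and -0.02 over all genes. In +PBS-1w against Intact 5 of 6 were lower (12.5% of all genes), the exception being Grin2c at -0.55 ± 0.26 on the log2 scale (SE, adjusted p = 0.0803, edgeR). The same 5 members were lower in +PBS-4w against Intact (10.7% of all genes), with Grin2c at -0.28 ± 0.24 (SE, adjusted p = 0.343, edgeR). These comparisons share the Intact libraries.

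At 2 weeks without cells, with 2 libraries in the group, Grin2b, Grin2d and Grin3a were called lower than Intact (5.66% of all genes). There Grin1 was at -1.72 ± 0.51 on the log2 scale (SE, adjusted p = 0.0121, edgeR) and Grin2a at -2.16 ± 0.66 (SE, adjusted p = 0.0139, edgeR). This count moved with single libraries. It was 5 without sub-SCI replicate 3 or +PBS-4w replicate 1, and 4 without sub-SCI replicate 2 or +PBS-4w replicate 2. It was 2 without Intact replicate 2, Intact replicate 3 or +PBS-2w replicate 2, and 1 without +PBS-2w replicate 1 or without all replicate 1 libraries. DESeq2 on all libraries called 5 (7.99% of genes with an adjusted p), as did DESeq2 (8.89%) and edgeR (8.32%) on the 2 groups alone.

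Between the day of transplantation and 4 weeks without cells, edgeR called 0 of 6 members higher in +PBS-4w than in sub-SCI (4.28% of all genes), with 5 at an unadjusted p under 0.05 (20.1% of all genes in the same direction) and 1 called by DESeq2 on all libraries (5.32%). The log2 fold change was 0.99 ± 0.26 for Grin2c (SE, adjusted p = 0.00858, edgeR) and 1.10 ± 0.31 for Grin3a (SE, adjusted p = 0.013, edgeR). That of Grin2d was 0.13 ± 0.18 (SE, adjusted p = 0.635, edgeR). Without +PBS-4w replicate 1, Grin2a reached 1.86 ± 0.52 (SE, adjusted p = 0.00847, edgeR) and Grin3a 1.34 ± 0.26 (SE, adjusted p = 0.000564, edgeR), and both were then called. Without +PBS-4w replicate 2, Grin2c alone was called.

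The comparison of +MSC with +PBS asks whether transplantation changed the subunit transcripts at a given week. No member was called at 1, 2 or 4 weeks by edgeR, and 0%, 0% and 0.495% of all genes were called higher. At an unadjusted p under 0.05 the members numbered 3, 2 and 5, all higher in +MSC, where 10.6%, 5.49% and 11.2% of all genes were higher under the same rule. DESeq2 on all libraries called 0, 0 and 2 (Grin2a and Grin2b at 4 weeks), beside 0.19%, 0.0152% and 1.75% of the genes with an adjusted p. DESeq2 on the 2 groups called 1 (Grin1), 0 and 1 (Grin2b), beside 1.46%, 0.464% and 1.34%. At 4 weeks, Grin2a, Grin2b and Grin2d had an adjusted p under 0.05, as 3.07% of all genes did in the same direction. Their log2 fold changes were 1.92 ± 0.51, 1.27 ± 0.30 and 0.77 ± 0.17 (SE, adjusted p = 0.0366, 0.0199 and 0.0127, edgeR). The +PBS libraries that these comparisons use also enter the comparisons with Intact.

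Leaving out +PBS-4w replicate 1 changed the values at 4 weeks. Grin1 moved from 1.06 ± 0.39 (SE, adjusted p = 0.113, edgeR) to 1.62 ± 0.36 (SE, adjusted p = 0.00594, edgeR) and was then called higher in +MSC-4w. Grin2a moved from 1.92 to 1.53 ± 0.45 (SE, adjusted p = 0.0259, edgeR), and Grin3a from 0.79 to 0.50 ± 0.23 (SE, adjusted p = 0.14, edgeR). Grin2d moved from 0.77 to 0.91 ± 0.16 (SE, adjusted p = 0.00235, edgeR) and remained below the fold threshold. Grin2c stayed at 0.12 ± 0.26 (SE, adjusted p = 0.788, edgeR).

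Over the 3 weeks together, 3 of 6 members rose in +MSC against +PBS, where 1.61% of all genes were called higher and 0.956% lower. The mean of the weekly log2 fold changes was 1.02 ± 0.26 for Grin1 (SE, adjusted p = 0.00896, edgeR), 1.29 ± 0.34 for Grin2a (SE, adjusted p = 0.00991, edgeR) and 1.03 ± 0.20 for Grin2b (SE, adjusted p = 0.00168, edgeR). All 3 were close to the thresholds. Grin2d at 0.70 ± 0.11 (SE, adjusted p = 0.000477, edgeR) did not pass the fold threshold. Grin3a at 0.66 ± 0.19 (SE, adjusted p = 0.0151, edgeR) passed neither the fold nor the adjusted p threshold. Grin2c was at 0.06 ± 0.16 (SE, adjusted p = 0.819, edgeR). At an adjusted p under 0.05 and any fold, 5 members were higher, as were 12.3% of all genes. The median was 0.86 over the members and -0.02 over all genes.

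The count of 3 depended on single libraries and on the replicate 1 libraries. Over 26 fits that each left out 1 library, Grin2b was called in 20, Grin1 in 6 and Grin2a in 5. The count remained 3 without sub-SCI replicate 2 or sub-SCI replicate 3 and was lower in every other such fit. It was 0 without +MSC-1w replicate 2, +PBS-1w replicate 2, +MSC-2w replicate 1, +PBS-2w replicate 1 or +MSC-4w replicate 4. It was 2 in 6 fits, those without +PBS-1w replicate 1, +PBS-2w replicate 2, +MSC-4w replicate 2, +MSC-4w replicate 3, +PBS-4w replicate 1 or +PBS-4w replicate 4, and 1 in the other 13, the 4 Intact libraries included. In these fits the mean log2 fold change stayed between 0.86 and 1.22 for Grin1, 1.15 and 1.47 for Grin2a and 0.91 and 1.13 for Grin2b, with adjusted p up to 0.0702, 0.0692 and 0.0223 in edgeR's test. Without the replicate 1 libraries 0 members were called by edgeR and 5 had an unadjusted p under 0.05 (15.9% of genes). DESeq2 on all libraries called 3 (2.05%). Without +PBS-4w replicate 1, Grin1 was at 1.19 ± 0.22 (SE, adjusted p = 0.000508, edgeR). Grin2b was then at 0.96 ± 0.20 (SE, adjusted p = 0.00129, edgeR), below the fold threshold.

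The +MSC effect was not shown to differ between weeks. In the 3 comparisons of the effect at 1, 2 and 4 weeks, 0% of the 17990 genes passed an adjusted p of 0.05 as interaction terms in edgeR, and 0 members had an unadjusted p under 0.05. The largest difference among the members was that of Grin2a between 2 and 4 weeks, -1.04 ± 0.80 on the log2 scale (SE, adjusted p = 1, edgeR).

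Set against Intact, edgeR on all libraries called few members in the +MSC groups. Grin2d was called lower in +MSC-1w (2.63% of all genes called lower) and in +MSC-4w (1.53%), and 0 of 6 were called in +MSC-2w (0.461%), where 4 had an unadjusted p under 0.05 (14.5% of all genes). In +MSC-2w edgeR and DESeq2 on the 2 groups called 1 each (1.1% and 1.48% of genes) and DESeq2 on all libraries called 0 (1.01%). In +MSC-1w the call depended on the fit, with 4 of 6 called lower by DESeq2 on all libraries (4.31%), DESeq2 on the 2 groups (4.98%) and edgeR on the 2 groups (5.07%). The log2 fold change of Grin2d in the fit of all libraries was -1.15 ± 0.18 at 1 week (SE, adjusted p = 4.72e-05, edgeR) and -1.07 ± 0.16 at 4 weeks (SE, adjusted p = 4.62e-05, edgeR). Without +MSC-4w replicate 3 it was at -0.97 at 4 weeks and not called. In +MSC-4w DESeq2 on the 2 groups called 2 members, for which the share of all genes was not computed. At 1 week the count was 2 without sub-SCI replicate 3, +PBS-1w replicate 3 or +PBS-4w replicate 4, 3 without +MSC-1w replicate 2 and 4 without +PBS-4w replicate 1. By mean CPM, Grin1 stood at 40.8%, 58.1% and 49.1% of Intact at 1, 2 and 4 weeks with cells and at 19.5%, 30.3% and 23.5% without, the last being 15.6% without +PBS-4w replicate 1. For Grin2c the same figures were 81.2%, 111% and 87.7% with cells and 68.4%, 123% and 82.5% without.

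**Figure D2:**
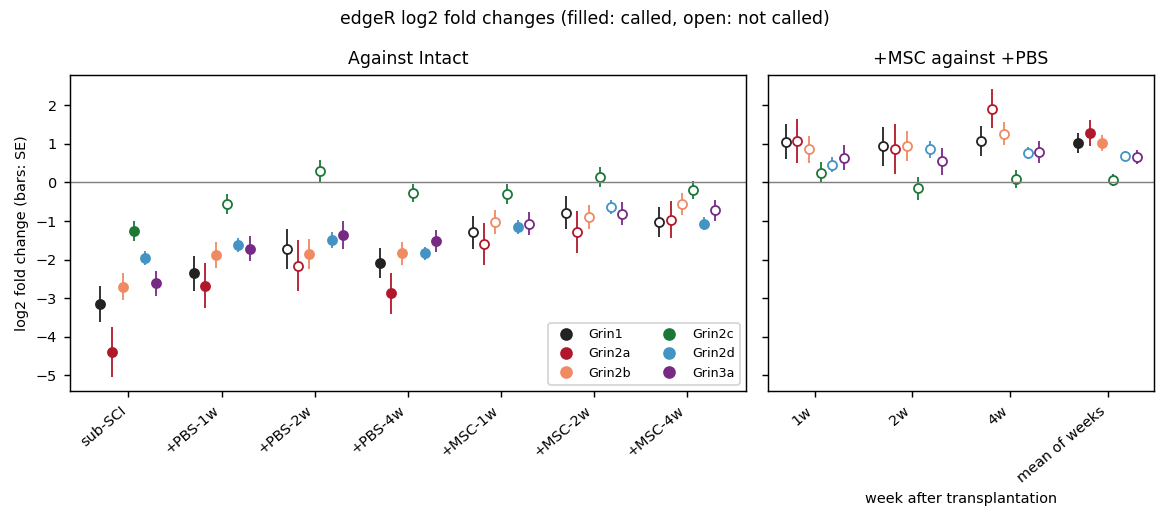
Log2 fold change of each member (vertical axis, bars SE) in each injured group against Intact and in +MSC against +PBS by week and over the weeks, with filled points for called genes. Of the members, Grin2c is called against Intact in sub-SCI alone and lies within 0.25 of 0 in each +MSC against +PBS comparison.

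Per length, the composition of the subunit transcripts changed. On the RPKM scale, which divides CPM by the gene's length in kilobases, Grin1 made up 53.0% ± 2.94 (SD, n = 4) of the summed member RPKM in Intact and Grin2c 26.2% ± 3.14 (SD, n = 4). In sub-SCI Grin1 made up 27.3% ± 8.70 (SD, n = 3) and Grin2c 54.1% ± 6.68 (SD, n = 3). Grin2c stayed the largest share in +PBS, with 49.9%, 58.8% and 55.9% at 1, 2 and 4 weeks, while Grin1 had 31.7%, 28.8% and 29.3%. Without +PBS-4w replicate 1 the 4-week shares were 59.6% for Grin2c and 23.6% for Grin1. In the +MSC groups the shares were nearer to each other, with 41.1%, 40.7% and 38.9% for Grin2c and 41.4%, 42.8% and 42.6% for Grin1. Grin2a made up 4.69% in Intact, 0.987% in sub-SCI, 1.80% to 2.08% in +PBS and 2.73% to 3.96% in +MSC. Grin2b was between 0.731% and 1.68% in every group mean.

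**Figure D3:**
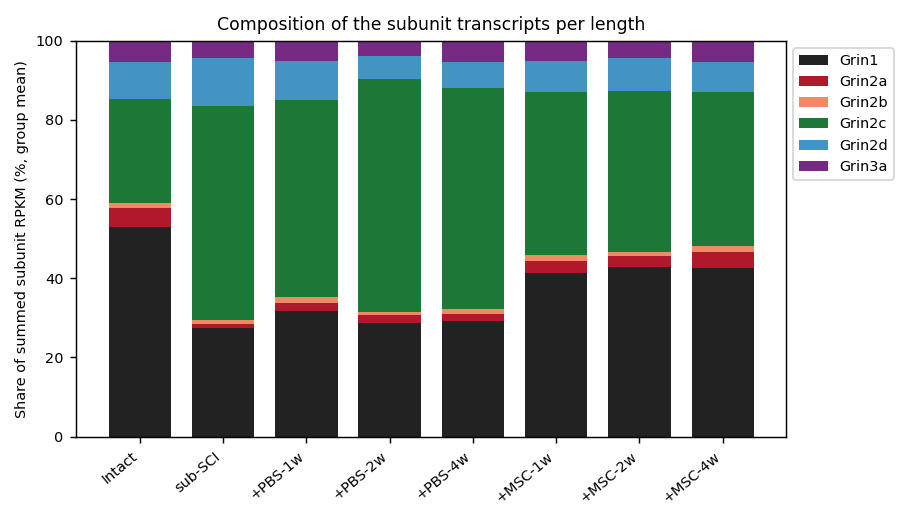
Share of each member in the summed RPKM of the 6 members (vertical axis, percent, mean of the libraries of each group on the horizontal axis). Grin1 is the largest part of the bar in Intact and Grin2c in sub-SCI and the +PBS groups, and in the +MSC groups Grin2c lies between 38.9% and 41.1%.

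The change in composition was tested as the log2 ratio of each member to Grin1 within a library, a value that needs no gene length. Together with Grin2a to Grin2b and with each member set against the mean of the neuron markers, 12 measures were compared between +PBS and Intact and between +MSC and +PBS. The 24 exact two-sided permutation tests were adjusted together. The share of all genes tested that would pass, or lie apart in the same way, was not computed. The ratio of Grin2c to Grin1 was -1.47, -0.94, -1.30 and -0.99 in Intact. It was 0.60, 0.98 and -0.11 in +PBS-1w, 1.55 and 0.29 in +PBS-2w and -0.20, 1.39, 1.11 and 1.06 in +PBS-4w. Every +PBS library was above every Intact library. The difference of means was 1.92 (exact permutation test, p = 0.0014, the smallest that the regroupings can give, adjusted p = 0.00986), and it was 1.67, 2.096 and 2.02 at 1, 2 and 4 weeks.

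In the +MSC libraries the ratio of Grin2c to Grin1 lay between those of Intact and most +PBS libraries. It was -0.60, -0.06 and 0.19 at 1 week, -0.78, 0.06 and 0.04 at 2 weeks and -0.72, -0.18, 0.08 and -0.32 at 4 weeks. The +MSC and +PBS ranges were apart at 2 weeks and overlapped at 1 and 4 weeks through +PBS-1w replicate 3 and +PBS-4w replicate 1. The mean of the weekly differences between +MSC and +PBS was -0.97 (exact permutation test within weeks, p = 0.00164 over 14000 regroupings, adjusted p = 0.00986), with -0.65, -1.15 and -1.12 at 1, 2 and 4 weeks. Both comparisons share the +PBS libraries. Without +PBS-2w replicate 1 it was -0.76 (adjusted p = 0.0514, exact permutation test). Over the other libraries left out in turn it kept its call. Without +PBS-4w replicate 1 the differences were 2.04 for +PBS against Intact and -1.09 for +MSC against +PBS (adjusted p = 0.0121 and 0.00686, exact permutation tests), with 2.37 and -1.47 at 4 weeks.

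Set against the neuron markers, Grin2c was the member that passed the test in both comparisons. Its log2 distance to their mean was -1.52 ± 0.27 in Intact (SD, n = 4), 0.16 ± 0.54 in +PBS (SD, n = 9) and -0.80 ± 0.34 in +MSC (SD, n = 10). The difference was 1.67 for +PBS against Intact (exact permutation test, p = 0.0014, adjusted p = 0.00986) and -0.95 for +MSC against +PBS (exact permutation test, p = 0.000143, adjusted p = 0.00343). Every +PBS library was above every Intact library. Without +PBS-4w replicate 1 the differences were 1.77 and -1.05 (adjusted p = 0.0121 and 0.00686, exact permutation tests). Grin1 was at -0.34 ± 0.07 (SD, n = 4), -0.58 ± 0.17 (SD, n = 9) and -0.57 ± 0.18 (SD, n = 10) in the same groups. Its differences were -0.24 (exact permutation test, p = 0.0196, adjusted p = 0.094) and 0.02 (exact permutation test, p = 0.797, adjusted p = 0.832).

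In each comparison, the other 10 measures did not pass an adjusted p of 0.05, and +PBS-4w replicate 1 decided some of them. Without that library 5 measures passed for +PBS against Intact and 6 for +MSC against +PBS. Among these, Grin2d to Grin1 was then 0.63 higher in +PBS than in Intact (adjusted p = 0.0323, exact permutation test) and 0.48 lower in +MSC than in +PBS, at -0.48 (adjusted p = 0.0226, exact permutation test). Grin3a to Grin1 was 0.90 and -0.68 (adjusted p = 0.0323 and 0.032, exact permutation tests). With that library, Grin2d to Grin1 differed by 0.52 and -0.40 (adjusted p = 0.155 and 0.103, exact permutation tests) and Grin3a to Grin1 by 0.63 and -0.42 (adjusted p = 0.412 for both, exact permutation tests). Without the replicate 1 libraries +PBS-2w rests on replicate 2 alone, and at most 84 and 360 regroupings are left. The smallest p that the exact permutation tests can then give is 0.0119 and 0.00278 before adjustment. After adjustment over the 24 tests no single measure could pass 0.05 on its own, so this setting does not decide the comparisons. The Grin2c to Grin1 differences were 1.86 and -0.64 in it.

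**Figure D4:**
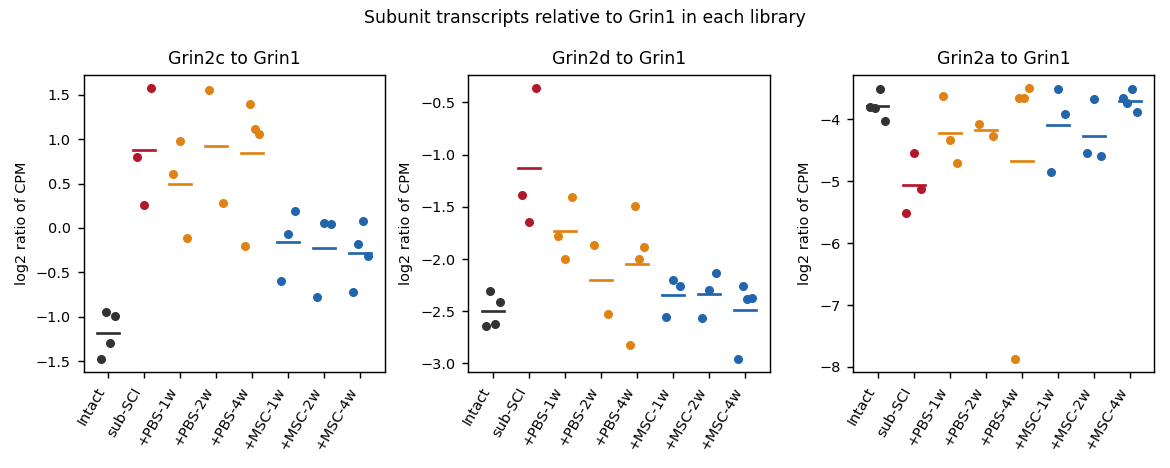
Log2 ratio of Grin2c, Grin2d and Grin2a to Grin1 (vertical axes, CPM in the same library) by group, with points for libraries and lines for group means. For Grin2c every +PBS and sub-SCI library lies above every Intact library, and for Grin2a the library at -7.87 is +PBS-4w replicate 1.

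Neuron markers moved with the same groups. The 15 neuron markers summed to between 13544 and 16161 CPM in Intact, 768 and 3185 CPM in sub-SCI, 1721 and 8758 CPM over the +PBS groups and 5204 and 12347 CPM over the +MSC groups. Of these markers, 14 were called lower in sub-SCI against Intact (17.5% of all genes). Over the weeks 5 were called higher with cells (1.61% of all genes). The medians were -2.71 and 0.91, next to -2.66 and 0.86 for the members. The 10 astrocyte markers followed another course. Their mean log2 CPM was 8.76 in Intact, 7.59 in sub-SCI, 8.24, 8.97 and 8.76 in +PBS at 1, 2 and 4 weeks and 8.68, 9.06 and 8.84 in +MSC. Summed, they gave 11878 to 13624 CPM in Intact and 6222 to 12216 CPM in sub-SCI, which overlap. The +PBS sums were 7231 to 16154, 19874 to 22283 and 15582 to 24728 CPM at 1, 2 and 4 weeks. Those of +MSC were 16332 to 17426, 17698 to 26417 and 16236 to 20874 CPM. By sum +PBS-4w thus lay above Intact, while its mean log2 CPM matched that of Intact. These lists were set beside Grin1 and Grin2c after their values had been seen. Grin2c had its lowest values where the mean log2 CPM of the astrocyte markers was lowest, in sub-SCI and in +PBS-1w replicate 3 (7.86 for the markers). Its highest group mean was in +PBS-2w.

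Of the other marker lists, 11 of 12 microglia and macrophage genes and 10 of 10 fibroblast and scar matrix genes were called higher in sub-SCI than in Intact (16.6% of all genes). Of the oligodendrocyte and astrocyte genes, 7 of 10 each were called lower (17.5% of all genes). In the same comparison 2 of 8 endothelial and 2 of 8 Schwann cell genes were called higher and 1 of 4 oligodendrocyte precursor genes lower. Beside the same shares of all genes, these small counts are not read as a change of those lists. Over the weeks the median log2 fold change of +MSC against +PBS was 0.31 for the oligodendrocyte list, 0.21 for the astrocyte list, 0.11 for the oligodendrocyte precursor list, -0.25 for the endothelial list, -0.42 for the microglia and macrophage list, -0.64 for the Schwann cell list and -1.19 for the fibroblast list. In this comparison 2 fibroblast, 1 microglia and 1 endothelial gene were called lower (0.956% of all genes). Each list of neuron, oligodendrocyte and astrocyte markers was detected in full in every library, as spinal cord should show. The part of cell composition in the subunit changes was not tested beyond these values.

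**Figure D5:**
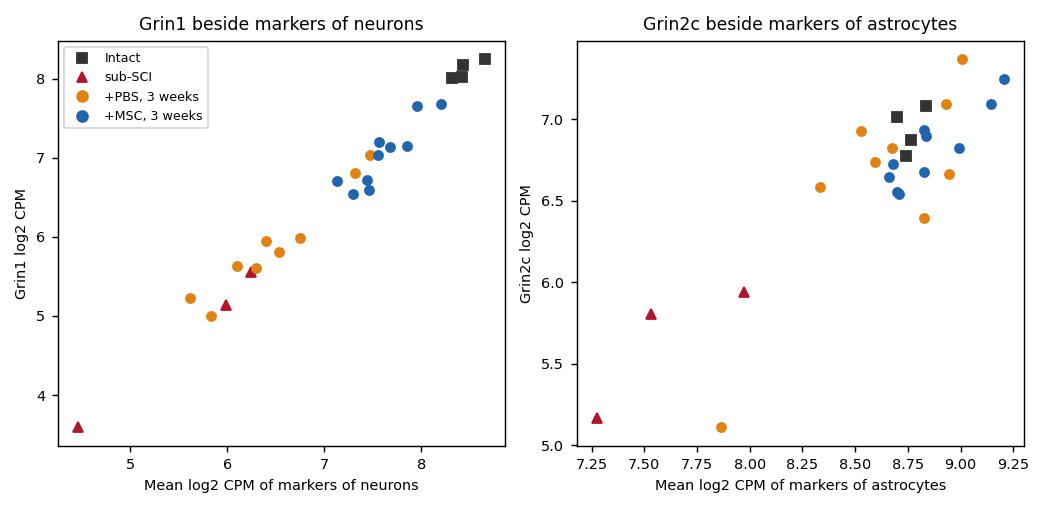
Level of Grin1 beside the mean of the neuron markers and of Grin2c beside the mean of the astrocyte markers, in log2 CPM, with points for the 26 libraries by group. Grin1 rises with the neuron markers from sub-SCI to Intact, and the lowest Grin2c values lie in sub-SCI and in +PBS-1w replicate 3, where the mean of the astrocyte markers is lowest.

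The genes whose log2 CPM was most like that of each member over the 26 libraries also differed for Grin2c. Pearson's r is given as a description over libraries that differ by group. For Grin1 the nearest genes were Dpp6, a potassium channel auxiliary subunit, Camk2b, a kinase that NMDA receptor calcium activates, and Clstn3, a synaptic adhesion protein (r = 0.997, 0.996 and 0.995). For Grin2a they included Unc80, a part of the sodium leak channel complex, and Slc7a14 (r = 0.988 and 0.981). For Grin2c they were Hepacam, an adhesion protein of astrocytes, Cyp2d4 and Acsbg1 (r = 0.957, 0.931 and 0.931).

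For Grin2b the nearest genes were Ttc3, Rasgrp1 and Adam23 (r = 0.933, 0.927 and 0.918), for Grin2d Dctn1, Mcf2l and Atp2a2 (r = 0.975, 0.974 and 0.973), and for Grin3a Adcy1, Kidins220 and Erbb4 (r = 0.974, 0.970 and 0.970). Among the members, r was highest for Grin2a with Grin3a (0.948) and Grin1 with Grin2d (0.937). It was lowest for Grin2b with Grin2c (0.422), and each of the 5 pairs with Grin2c was at 0.691 or less.

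Most of the listed genes that anchor or move the receptor at the synapse fell after the injury. Of 21 scaffold and trafficking genes, 15 were called lower in sub-SCI than in Intact (17.5% of all genes), with a median log2 fold change of -2.14 (-0.02 over all genes). Dlgap1, a postsynaptic density scaffold, was at -2.14 ± 0.22 (SE, adjusted p = 3.88e-08, edgeR) and Neto1, an auxiliary subunit, at -2.17 ± 0.23 (SE, adjusted p = 5.28e-08, edgeR). Over the weeks 2 of the 21 were called higher (1.61% of all genes). Shank1 and Dlg2, both scaffolds of the postsynaptic density, rose in +MSC by 1.07 ± 0.19 and 1.05 ± 0.19 on the log2 scale (SE, adjusted p = 0.000815 and 0.00103, edgeR). Of 18 calcium signalling and phosphorylation genes tested, 12 fell in sub-SCI (17.5% of all genes) and 3 rose in +MSC over the weeks (1.61%), with medians of -1.57 and 0.51. Akap5, which anchors kinases and calcineurin near the receptor, was at -2.41 ± 0.28 (SE, adjusted p = 1.93e-07, edgeR) in sub-SCI, and Ppp3ca, a catalytic subunit of calcineurin, at -1.64 ± 0.20 (SE, adjusted p = 6.08e-07, edgeR). Camk4, a nuclear calcium-dependent kinase, rose by 1.26 ± 0.19 (SE, adjusted p = 0.000426, edgeR) and Rasgrf1, a calcium-dependent activator of Ras, by 1.08 ± 0.24 (SE, adjusted p = 0.00407, edgeR) in +MSC.

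Of the 10 genes of co-agonist synthesis and transport, 4 were called lower and 1 higher in sub-SCI, beside 17.5% and 16.6% of all genes, with a median of -0.75. Over the weeks 2 were called higher (1.61% of all genes), with a median of 0.28. Slc6a5, the glycine transporter of glycinergic neurons, was at -4.15 ± 0.57 (SE, adjusted p = 2.17e-06, edgeR) and Slc6a9, the glial glycine transporter, at -1.65 ± 0.26 (SE, adjusted p = 9.94e-06, edgeR). Shmt1, which interconverts serine and glycine, was higher at 2.38 ± 0.22 (SE, adjusted p = 6.94e-09, edgeR). Over the weeks Slc6a5 rose in +MSC by 1.34 ± 0.31 (SE, adjusted p = 0.00457, edgeR) and Slc7a10, a transporter of D-serine and glycine, by 1.23 ± 0.32 (SE, adjusted p = 0.00957, edgeR). Of the 10 genes of glutamate release, uptake and recycling, 5 fell in sub-SCI (17.5% of all genes), with a median of -1.29. Slc17a6, a vesicular glutamate transporter, was at -3.03 ± 0.45 (SE, adjusted p = 5.46e-06, edgeR) and Slc1a2, the main glial glutamate transporter, at -3.03 ± 0.42 (SE, adjusted p = 2.2e-06, edgeR). Slc17a6 was also the 1 gene of this list that rose in +MSC over the weeks, by 1.007 ± 0.25 (SE, adjusted p = 0.00776, edgeR).

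Grin3b, the remaining NMDA receptor subunit gene, was not a member and moved less. It was at 20.8 to 26.9 CPM in Intact and 12.3 to 14.4 CPM in sub-SCI, and its log2 fold change of -0.84 ± 0.20 (SE, adjusted p = 0.00093, edgeR) did not pass the fold threshold. Over the weeks it was at 0.12 ± 0.12 between +MSC and +PBS (SE, adjusted p = 0.511, edgeR).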

How the data were processed

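Poly(A) RNA of rat spinal cord segments was sequenced by the authors in 26 libraries. Per the labels and the study's methods, the tools were Trim Galore 0.5.0 for trimming, HISAT2 2.1.0 for alignment, first to GRCh38 to discard human reads and then to Rnor6, SAMtools 1.9 to select properly paired reads and featureCounts 1.6.4 for gene counts. The deposited values are raw counts per gene without normalization. The annotation release and strand setting are not given in the sources used here, so reads of overlapping or antisense genes cannot be told apart.

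Groups came from the sample labels. All genes were fitted with edgeR 4.0.16 under R 4.3.3 (filterByExpr, TMM, 8 groups in 1 model, glmQLFit and glmQLFTest, Benjamini-Hochberg adjustment over 17990 genes), with limma 3.58.1 loaded and DESeq2 1.42.0 as an alternative. The edgeR test of sub-SCI against Intact was checked on simulated counts. The permutation test was checked on simulated normal values at the sizes of +PBS against Intact. The other comparisons were not checked in this way. RPKM values used the deposited gene lengths. Log2 CPM used a prior count of 2. Within-library measures were compared by exact two-sided permutation in Python 3.11.15. The members and lists were chosen with earlier results of these data known. Of 150 listed genes 143 were tested, and 1 symbol that names 2 genes was left out. Besides the members and Grin3b, the genes named are, per function list, up to 2 higher and 2 lower called genes with the smallest adjusted p in sub-SCI against Intact and over the 3 weeks, and the 3 genes most like each member, of which 1 is not reported here. Alternatives were other size factors, other filters and thresholds, a replicate block, a term for replicate 1, the libraries other than replicate 1, fits of 2 groups and each library left out. The SE of a log2 fold change was derived from that change and the F statistic of edgeR's test, in a fit of all groups. SD values give the spread between libraries. Values below 1 CPM rest on few reads.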

Additional observations from a re-analysis of the deposited data

Results flagged for a closer look

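In groups of 4 libraries, the levels of the members on the log2 CPM scale and the 12 within-library measures were examined for a library far from the others by Dixon's gap test, 54 groups in all, of which 5 were marked. Chance marks about 1 in 20. In +PBS-4w replicate 1, the log2 ratio to Grin1 was -7.87 for Grin2a and -5.58 for Grin3a, and the log2 distance to the neuron markers was -8.31 for Grin2a and -6.03 for Grin3a, each the lowest of its group. These 4 values share 1 library, and those of each gene share its counts. In +MSC-4w replicate 1, the log2 distance of Grin2a to the neuron markers was -3.96, the highest of its group. No member's level on the log2 CPM scale was marked.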

How the results depend on the processing

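The counts of called members in sub-SCI, +PBS-1w and +PBS-4w against Intact (6, 5 and 5) were the same in all fits that left out 1 library. The counts against Intact at 2 weeks without cells and at 1, 2 and 4 weeks with cells, between +PBS-4w and sub-SCI and over the weeks moved. With an adjusted p under 0.05 at any fold they were 5 for +PBS-2w, 5, 1 and 3 for +MSC-1w, +MSC-2w and +MSC-4w, 2 for +PBS-4w against sub-SCI, 3 for +MSC-4w against +PBS-4w and 5 over the weeks. Under this rule 3.07% of all genes were higher in +MSC-4w against +PBS-4w and 12.3% over the weeks. For its other counts the share over all genes was not computed. The same holds for counts below whose fit has no share above. Those counts only describe the members. With at least 10 counts in every library, where Grin2a was not tested, 1 was called over the weeks. A term for replicate 1 gave 3 for +MSC-1w against Intact and 1 for +PBS-4w against sub-SCI. Without replicate 1 libraries the count was 1 for +PBS-4w against sub-SCI. In that setting +PBS-2w rested on replicate 2 alone, and the regroupings left did not allow a single measure to pass on its own. DESeq2 on all libraries gave 5 for +PBS-2w and 4 for +MSC-1w against Intact, 2 at 4 weeks between +MSC and +PBS and 1 for +PBS-4w against sub-SCI. DESeq2 on the 2 groups gave 5, 4, 1 and 2 for +PBS-2w, +MSC-1w, +MSC-2w and +MSC-4w against Intact and 1 at 1 and at 4 weeks between +MSC and +PBS, and edgeR on the 2 groups gave 5, 4 and 1 for +PBS-2w, +MSC-1w and +MSC-2w against Intact. Leaving out 1 library gave ranges of 1 to 5 (+PBS-2w), 1 to 4 (+MSC-1w) and 0 to 1 (+MSC-4w) against Intact, 0 to 2 for +PBS-4w against sub-SCI, 0 to 1 at 4 weeks between +MSC and +PBS, 0 to 3 over the weeks, and 2 to 5 and 1 to 6 measures in the 2 permutation comparisons. Neither the labels nor the study's methods tie same-numbered libraries to a shared animal or day, and r of their deviations ran from -0.17 to 0.45 over 80 pairs, with 31 over 0.1, of which 18 were between replicate 1 libraries. In none of the comparisons tested were all pairs over 0.1. With the replicate block 4 measures passed between +MSC and +PBS, 4 members were called for +PBS-2w against Intact and the 3 over the weeks stayed 3. The values that changed sign were close to 0. Without replicate 1 libraries, Grin1 to neuron markers between +MSC and +PBS was -0.0472, Grin2c at 2 weeks between +MSC and +PBS 0.0646 and Grin2d between +PBS-4w and sub-SCI -0.0291. With 1 library left out, Grin1 to neuron markers ranged from -0.0183 to 0.0559, Grin2a to Grin1 from -0.0252 to 0.46, Grin2b to Grin1 from -0.26 to 0.0838 and Grin2b to neuron markers from -0.23 to 0.13 between +MSC and +PBS. Likewise Grin2c ranged from -0.12 to 0.61 at 1 week, from -0.28 to 0.000184 at 2 weeks and from -0.0631 to 0.18 over the weeks, and Grin2d from -0.0517 to 0.27 between +PBS-4w and sub-SCI. The causes of these moves were not tested. Depth limits Grin2a and Grin2b, whose lowest counts were 8 and 31 reads.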
